A study of Mus musculus with 18 samples.

Results

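Polycomb repressive complex 1 (PRC1) adds ubiquitin to histone H2A and helps to hold developmental genes off in embryonic stem cells. Every PRC1 complex holds a catalytic subunit, Ring1b (encoded by Rnf2) or Ring1a (encoded by Ring1), and a Pcgf protein that decides which partners join it. Canonical PRC1 contains Pcgf2 or Pcgf4 (gene Bmi1) with a Cbx and a Phc protein, and variant PRC1 contains Pcgf1, Pcgf3, Pcgf5 or Pcgf6 with Rybp or Yaf2. The Pcgf6 complex also holds the DNA-binding proteins Mga, Max and E2f6 and is known for silencing germline genes. The comparison described here asks how the transcripts of cells without the variant Pcgf genes differ from those of cells without the catalytic subunits.

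RNA was measured in mouse embryonic stem cells, 3 libraries a group. The Pcgf-4KO group is labelled Pcgf1/3/5/6-/-, so that canonical PRC1 genes were left in place, and the double knockout is labelled Ring1a/b-dKO. These 6 libraries of the 18 in the series are compared. WT cells, the knockout of all Pcgf genes from Pcgf1 to Pcgf6 (Pcgf-6KO), Ring1a-KO and Ring1b-KO, with 3 libraries each, served for reference and in the estimate of the spread. All were total RNA from trypsin-detached cells. Clones, medium, day and batch are not in the labels, nor is it stated that replicate libraries are separate cultures, so p-values measure the spread between libraries, which may be technical. The deposited values are TPM, a share of all transcripts corrected for transcript length. TPM holds no read counts, so sequencing depth is unknown and counting error could not be computed. Differences are given as Pcgf-4KO minus double knockout on the log2(TPM + 1) scale, as estimate ± SE. This scale understates the change of genes at low TPM. Called genes are those with an adjusted p under 0.05 (limma, Benjamini-Hochberg over 17842 genes).

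The embryonic stem cell label was checked against 7 markers (Pou5f1, Nanog, Sox2, Zfp42, Dppa5a, Tdgf1 and Esrrb). Their summed level was 3390 to 3520 TPM in Pcgf-4KO, 2588 to 2902 in the double knockout and 4120 to 4183 in WT, and 7 of 7 were at 1 TPM or more in each group. Markers of other cell types were also read. The sum of 6 trophoblast markers was 180.3 to 190.2, 170.8 to 181.3 and 5.08 to 5.22 TPM in the same order, most of it from Hand1, with the differentiated markers Tpbpa and Prl3d1 at or near 0. The sum of 5 primitive endoderm markers was 23.47 to 27.92, 35.02 to 36.82 and 2.56 to 2.82 TPM. Neural, muscle and fibroblast markers summed to 81.77 to 85.26, 30.32 to 36.48 and 8.02 to 11.55 TPM in Pcgf-4KO and to 106 to 115.2, 30.45 to 34.08 and 16.6 to 18.9 TPM in the double knockout. In WT these sums were 282.8 to 287.3, 6.16 to 9.13 and 13.46 to 16.2 TPM, so the neural sum was highest in WT, and the part of these cell types in the results was not tested. In Pcgf-4KO, the double knockout and WT, Myh6 gave most of the muscle sum (means 30.1, 26.1 and 5.9 TPM). Thy1 gave most of the fibroblast sum (7.5, 14.4 and 11.8 TPM). Col1a1 was also higher in the double knockout than in Pcgf-4KO. Col1a2, Col3a1 and Dcn, all under 1 TPM, had higher means in Pcgf-4KO. In bulk RNA, fewer cells of a type and less RNA per cell cannot be told apart. Genes at 1 TPM or more numbered 15319 ± 42.8 (SD, n = 3) in Pcgf-4KO, 15821 ± 14 in the double knockout and 14213 ± 10.1 in WT.

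The targeted genes were read first, as a check of the labels. Pcgf6 (chromosome 19, 47033617 to 47050906, GRCm38) was at 0.07, 0 and 0.1 TPM in the Pcgf-4KO libraries and at 45.45, 44.89 and 47.14 TPM in the double knockout (-5.47 ± 0.06, adjusted p = 9.24e-18). Pcgf1 (chromosome 6, 83077869 to 83080855) was at 2.58, 0.28 and 0.82 TPM against 20.76, 20.86 and 22 TPM (-3.45 ± 0.27, adjusted p = 1.91e-07). Both genes thus had far lower transcript levels in all 3 Pcgf-4KO libraries. The double knockout stood above WT for Pcgf1 (10.93 TPM) and below it for Pcgf6 (53.01 TPM).

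Pcgf3 and Pcgf5 differed by less. Pcgf3 (chromosome 5, 108461232 to 108506976) was at 11.75, 12.31 and 11.31 TPM in Pcgf-4KO and at 18.55, 17.53 and 18.68 TPM in the double knockout (-0.59 ± 0.11, adjusted p = 0.000529). The Pcgf-4KO level was near the WT mean of 13.16 TPM and was not called against it (adjusted p = 0.245). Pcgf5 (chromosome 19, 36348309 to 36460970) was at 13.21, 15.67 and 14.68 TPM against 27.05, 25.57 and 26.63 TPM (-0.82 ± 0.08, adjusted p = 9.11e-07), with both groups above the WT mean of 9.553 TPM. A deleted exon need not lower the TPM of the whole gene, so Pcgf3 and Pcgf5 levels give no check of these knockouts.

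Of the catalytic subunits, Rnf2 (chromosome 1, 151458004 to 151500955) was at 88.31, 91.04 and 98.89 TPM in Pcgf-4KO and at 24.74, 24.15 and 19.38 TPM in the double knockout (1.99 ± 0.08, adjusted p = 1.17e-10). The WT mean of 71.26 TPM lay between them. Ring1 (chromosome 17, 34020792 to 34024680) was at 8.86, 10.72 and 9.57 TPM against 2.74, 6.12 and 9.4 TPM and was not called (0.71 ± 0.28, adjusted p = 0.0554). Double knockout replicate 3 was the high one, and without it the difference was 1.05 (adjusted p = 0.00531). Ring1 was also called, near the threshold, with genes at 5 TPM or more (adjusted p = 0.0496), under median ratio scaling (0.0491), after quantile normalization (0.0313) and among protein-coding genes alone (0.037). The canonical genes Pcgf2 (55.07, 53.26 and 57.51 TPM against 49.34, 54.46 and 52.89 TPM) and Bmi1 (13.83, 8.99 and 11.44 TPM against 14.41, 14.83 and 16.21 TPM) were not called. Their 95% intervals ran from -0.06 to 0.23 and from -0.8 to 0.01. With a pseudocount of 5, Bmi1 was called higher in the double knockout (adjusted p = 0.0287). Bmi1 stood above its WT mean of 1.603 TPM in both knockouts.

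**Figure D1:**
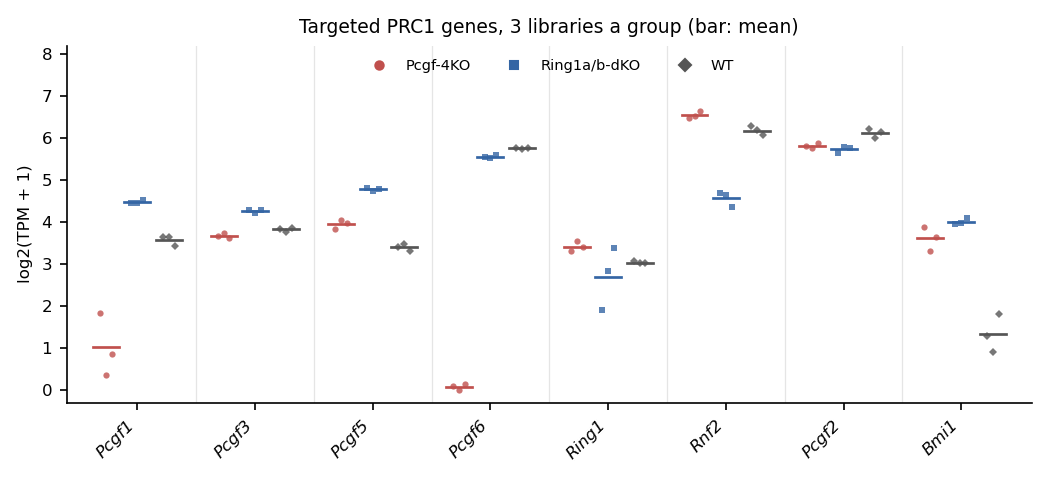
Transcript level, log2(TPM + 1), of the 8 Ring1 and Pcgf genes in Pcgf-4KO, double knockout and WT libraries; points are the 3 libraries of a group and bars their mean. Pcgf1 and Pcgf6 were low in Pcgf-4KO and Rnf2 in the double knockout, Pcgf3 and Pcgf5 kept substantial levels in all 3 groups, and the Ring1 libraries of the double knockout spread from 2.74 to 9.4 TPM.

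Across the 17842 genes tested, 6675 (37.4%) were called between the knockouts, 2723 (15.3%) higher in Pcgf-4KO and 3952 (22.1%) higher in the double knockout. The share of calls on the Pcgf-4KO side was 40.8%, against 49.7% under median ratio scaling and 51.3% after quantile normalization, so which side is larger depends on the scaling. Most differences were small: the median was -0.04, with 5th and 95th percentiles of -0.84 and 0.57. Of the called genes, 668 (3.74%) were at least 2-fold apart, 238 (1.33%) higher in Pcgf-4KO and 430 (2.41%) higher in the double knockout. The larger side turned after quantile normalization (289 against 268) and with a pseudocount of 5 (95 against 75). A test for a difference beyond 2-fold (limma treat) called 138 genes (0.773%), 74 (0.415%) higher in Pcgf-4KO and 64 (0.359%) higher in the double knockout. For 14990 genes (84%) the 95% interval lay within 2-fold in either direction. A further 1317 genes were neither called nor within that interval, and for these the data leave the size of the difference unknown. Single libraries did not overlap between the groups for 4219 genes (23.6%) higher in Pcgf-4KO and 5493 (30.8%) higher in the double knockout.

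The knockouts lay closer to each other than either lay to WT. The root mean square log2 distance between single libraries averaged 0.597 between the groups, 0.424 within Pcgf-4KO, 0.407 within the double knockout, and 0.951 and 0.942 from each group to WT. Against WT, 11602 genes (65%) were called in Pcgf-4KO, 8406 (47.1%) higher and 3196 (17.9%) lower. In the double knockout 11489 (64.4%) were called, 8677 (48.6%) higher and 2812 (15.8%) lower. These comparisons share the WT libraries. The median of all genes against WT was 0.25 in Pcgf-4KO and 0.28 in the double knockout, and 0 in both under median ratio scaling, so changes against WT are relative to that shift. Genes under 1 TPM in WT were 20.3% of those tested, 53.4% of the 238 genes at least 2-fold higher in Pcgf-4KO and 37.4% of the 430 at least 2-fold higher in the double knockout. Such genes mostly passed the filter on low values through knockout libraries where they are high, so these shares are partly set by that filter. The Pcgf-6KO mean lay between the 2 groups for 143 of the 238 and for 223 of the 430 genes.

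Hox genes, the homeobox genes that give body segments their identity and are the best-known PRC1 targets, were higher in the double knockout. All 37 of the 39 Hox genes that could be tested were called, against 22.1% of all genes. The median difference was -1.42 (from -2.68 for Hoxa9 to -0.42 for Hoxb1), against -0.04 for all genes. The libraries of the groups stayed apart for each of the 37, against 30.8% of all genes with the double knockout higher. Summed Hox transcripts reached 36.7, 35.2 and 37.5 TPM in Pcgf-4KO, 180, 180 and 187 TPM in the double knockout and 2.73, 2.5 and 2.35 TPM in WT. The Pcgf-6KO libraries, at 195, 208 and 211 TPM, stood above the double knockout, and the Ring1b-KO libraries, at 102, 97.2 and 102 TPM, between the groups. Loss of the variant Pcgf genes alone thus went with a Hox sum above WT and far below that of the double knockout. Against WT, 25 of the 37 were called higher in Pcgf-4KO and 37 in the double knockout.

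Hoxd13 (chromosome 2, 74668310 to 74671599), which patterns digits and the genital bud, was at 2.2, 1.84 and 2.05 TPM in Pcgf-4KO and at 17.14, 17.55 and 18.6 TPM in the double knockout (-2.63 ± 0.12, adjusted p = 4.55e-10). Hoxa9 (chromosome 6, 52223100 to 52231089), a gene of posterior axis and blood progenitors, was at 0.26, 0.04 and 0.11 TPM against 5.96, 7.73 and 5.3 TPM (-2.68 ± 0.17, adjusted p = 1.53e-08). Hoxc12 was at 0.74, 0.35 and 0.47 TPM against 8.7, 7.85 and 8.55 TPM (-2.63 ± 0.15, adjusted p = 4.53e-09). In each case the lowest double knockout library was several times the highest Pcgf-4KO library. The 120 bases upstream of the RefSeq starts (GRCm38.p6) are shown for Hoxd13 (chr2:74668105-74668224, plus strand) and Hoxa9 (chr6:52227371-52227490, minus strand). Both genes had the same pattern while these stretches differ in CpG content, with 18 CpG in the first and 2 in the second. The Hoxa9 stretch lies inside the gene span given above, before a RefSeq start within that span. The Hoxd13 stretch lies outside its gene span. The CpG contrast is thus not between like positions of the 2 genes. Capitals mark CpG.
Hoxd13: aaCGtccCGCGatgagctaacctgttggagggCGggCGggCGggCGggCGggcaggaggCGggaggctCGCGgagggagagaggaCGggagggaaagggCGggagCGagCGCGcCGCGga
Hoxa9: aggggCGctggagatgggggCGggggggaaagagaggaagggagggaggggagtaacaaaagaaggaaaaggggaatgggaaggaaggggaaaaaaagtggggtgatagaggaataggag

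The 4 clusters had similar medians, -1.21 for the 10 tested genes of the Hoxa cluster, -1.48 for 10 Hoxb, -1.49 for 9 Hoxc and -1.36 for 8 Hoxd genes. By position within a cluster the medians were -1.04 for paralogs 1 to 3, -1.48 for 4 to 8 and -1.4 for 9 to 13. Hoxb2 was listed at 0 in all 3 Pcgf-4KO libraries and was at 3.17, 3 and 3.88 TPM in the double knockout. At 1 TPM or more in every library of the group were 10 Hox genes in Pcgf-4KO and 34 in the double knockout. None of the 37 was at 1 TPM in WT, so most passed the filter on low values through knockout libraries where they are high, and the count is partly set by that filter. With genes at 5 TPM or more only, 14 Hox genes were called higher in the double knockout.

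**Figure D2:**
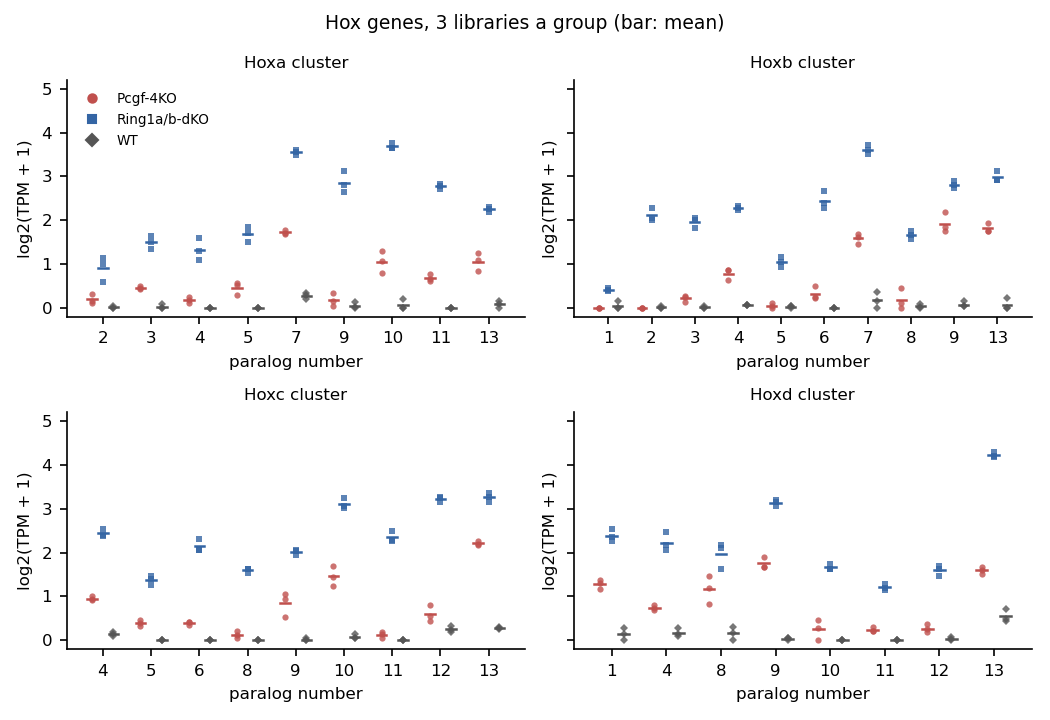
Transcript level, log2(TPM + 1), of tested Hox genes, by cluster and paralog number, in Pcgf-4KO, double knockout and WT; points are single libraries and bars means of 3. In all 4 clusters the double knockout libraries lie above the Pcgf-4KO libraries, with no overlap for any gene shown.

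Other developmental regulators mostly followed the Hox genes. Of 79 tested homeobox and paired-box genes outside the Hox clusters, 70 were higher in the double knockout, against 22.1% of all genes, 1 was higher in Pcgf-4KO and 8 were not called, with a median of -0.98. The mean was 1 TPM or more for 13 of the 79 in WT, 51 in Pcgf-4KO and 79 in the double knockout, so this count too is partly set by the filter on low values. Meis2, a Hox cofactor, was at 0.59, 0.68 and 0.4 TPM against 6.55, 4.85 and 6.39 TPM. Six3, a forebrain and eye factor, was at 0.84, 1.15 and 1.12 TPM against 7.36, 6.3 and 7.28 TPM.

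Of 30 T-box and mesoderm genes, 22 were higher in the double knockout and 3 in Pcgf-4KO (median -0.57), against 22.1% and 15.3% of all genes. The mean was 1 TPM or more for 7 in WT, 23 in Pcgf-4KO and 28 in the double knockout. Tbx4, a hindlimb factor, was at 4.84 ± 0.361 TPM in Pcgf-4KO and 12.98 ± 0.388 TPM in the double knockout (-1.26). Twist1 (7.387 against 15.42 TPM) and Wt1 (5.473 against 11.37 TPM) followed the same order, while Gata3, of trophoblast and T cells, was higher in Pcgf-4KO (13.29 against 8.753 TPM, 0.55). Tbx20 was also called higher in Pcgf-4KO (11.55 against 8.56 TPM), a call lost when any single library of either group was left out (adjusted p from 0.0615 to 0.115). With genes at 5 TPM or more only, the higher calls in the double knockout numbered 35 for the homeobox list and 8 for this list.

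Secreted signals showed the same lean. Of 31 Wnt, Fgf, Bmp and Hedgehog ligand genes, 19 were higher in the double knockout and 2 in Pcgf-4KO (median -0.49). The shares of all genes were 22.1% and 15.3%. When only genes at 5 TPM or more were kept, 8 were higher in the double knockout. The WT mean reached 1 TPM for 13 of the 31 genes, the Pcgf-4KO mean for 22 and the double knockout mean for 29. Fgf8 was at 1, 1.59 and 1.06 TPM against 5.71, 6.5 and 4.55 TPM (-1.57), Wnt10b at 1.62 against 5.66 TPM and Wnt9a at 6.083 against 14.16 TPM. Wnt7b, which serves placental and lung growth, was higher in Pcgf-4KO (35.82 against 18.53 TPM, 0.91), as was Bmp4 (51.95 against 34.57 TPM, 0.57).

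Endoderm genes were split. Of 25 tested, 13 were higher in the double knockout and 4 in Pcgf-4KO (median -0.31), against 22.1% and 15.3% of all genes. The 4 became 2 without Pcgf-4KO replicate 1 or 2, and 8 were higher in the double knockout with genes at 5 TPM or more only. The endoderm regulators Gata6 (4.48, 3.5 and 3.22 TPM against 9, 9.94 and 10.63 TPM, -1.2 ± 0.11) and Gata4 (6.61, 6.89 and 7.14 TPM against 16.05, 14.74 and 14.92 TPM, -1.04 ± 0.07) stood higher in all 3 double knockout libraries. Apoe, a lipid carrier of visceral endoderm, was at 410.12, 412.37 and 425.51 TPM against 897.9, 972.01 and 961.1 TPM, with a WT mean of 958.6 TPM. The lower side of Apoe was thus Pcgf-4KO, and the double knockout was near WT. Dab2, an endocytic adaptor of primitive endoderm, went the other way (10.03, 12.95 and 9.55 TPM against 2.86, 2.95 and 2.2 TPM, 1.69 ± 0.15, adjusted p = 5.78e-07). The call of the laminin gene Lama1 (6.687 against 4.127 TPM, 0.57) was lost without Pcgf-4KO replicate 1 or 2 or double knockout replicate 2. It was also lost in the fit of the 6 libraries alone (adjusted p = 0.0724).

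Trophoblast and placental genes, of the lineage that forms the placenta, were called higher in Pcgf-4KO in 13 of 26 cases and higher in the double knockout in 7 (median 0.23), against 15.3% and 22.1% of all genes. The 7 became 4 without Pcgf-4KO replicate 2 or double knockout replicate 1. The homeobox genes Rhox5 (910.62, 925.6 and 965.29 TPM against 264.34, 294.6 and 303.74 TPM, 1.7 ± 0.07) and Rhox6 (188.1 against 66.9 TPM, 1.48) and the bHLH gene Ascl2 (36.35 against 12.78 TPM, 1.44), needed for spongiotrophoblast, were higher in Pcgf-4KO. Cdx2, which starts the trophoblast lineage, was higher in the double knockout (3.86, 3.46 and 3.63 TPM against 9.01, 8.75 and 8.74 TPM, -1.08 ± 0.11), as was Tfap2a (0.9867 against 5.32 TPM, -1.67). Hand1, of trophoblast giant cells, was at 171.81, 172.93 and 163.51 TPM against 146.49, 158.66 and 157.25 TPM and was not called (0.14, 95% interval 0.02 to 0.26, adjusted p = 0.071). It was called higher in Pcgf-4KO with a pseudocount of 5 (adjusted p = 0.0217), under median ratio scaling (0.0295) and in the fit of the 6 libraries alone (0.0389). Against a WT mean of 2.45 TPM, Hand1 stood high in both knockouts. The 5 members at least 2-fold higher in Pcgf-4KO were H19, Rhox5, Rhox6, Rhox9 and Ascl2, which are imprinted or X-linked. Sct, called higher in the double knockout (17.61 against 24.51 TPM), lost its call without Pcgf-4KO replicate 2 or double knockout replicate 1.

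Apart from the targeted genes, the largest differences in either direction were those of imprinted and X-linked genes. Imprinted genes are expressed from the maternal or the paternal copy only, through DNA methylation set in the germ line. Of 37 tested, 11 were higher in Pcgf-4KO and 13 in the double knockout, against 15.3% and 22.1% of all genes, with a median of 0.02. In a fit without the Ring1a-KO and Pcgf-6KO groups, added after the data were seen, 17 were higher in Pcgf-4KO. H19 (chromosome 7, 142575529 to 142578143), a maternally expressed non-coding RNA, was at 240.81, 251.44 and 244.28 TPM in Pcgf-4KO and 3.96, 5.72 and 4.57 TPM in the double knockout (5.43 ± 0.1, adjusted p = 8.99e-15). Its WT mean was 0.2867 TPM and its Pcgf-6KO mean 486.4 TPM. Its paternally expressed neighbour Igf2 (142650766 to 142666816), a growth factor gene, was high in both groups, at 437.97, 444.67 and 434.95 TPM against 545.51, 548.31 and 536.01 TPM (-0.31 ± 0.04, adjusted p = 3.62e-05), with a WT mean of 19.04 TPM. H19 and Igf2 are neighbours under shared enhancers, and here Igf2 was far above WT in both groups while H19 differed between them.

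Mest (chromosome 6, 30723547 to 30748465), a paternally expressed hydrolase-like gene, was at 109.44, 107.61 and 110.11 TPM in Pcgf-4KO and at 1.93, 2 and 2.29 TPM in the double knockout (5.16 ± 0.06, adjusted p = 9.24e-18). Its mean was 76.03 TPM in WT, 61.78 in Pcgf-6KO, 46.39 in Ring1b-KO and 1.41 in Ring1a-KO. Low Mest was thus seen in the double knockout and in the Ring1a single knockout, and in none of the other 4 groups.

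The maternally expressed non-coding RNAs of the Dlk1-Dio3 domain on chromosome 12 went the other way. Meg3 (109541001 to 109571726) was at 3.71, 3.14 and 2.11 TPM in Pcgf-4KO and at 126.07, 137.84 and 142.41 TPM in the double knockout (-5.12 ± 0.11, adjusted p = 9.74e-14). Rian (109603940 to 109661716) was at 5.04, 5.33 and 4.41 TPM against 150.61, 146.69 and 148.73 TPM (-4.66 ± 0.07), and Mirg (109729764 to 109749460) at 0.67, 0.62 and 0.57 TPM against 16.8, 17.37 and 17.07 TPM (-3.48 ± 0.1). The double knockout lay somewhat below the WT means of 166, 218.2 and 22.52 TPM for these genes, and Pcgf-4KO far below them. Meg3 stayed at 108.8 TPM in Pcgf-6KO, 64.63 in Ring1b-KO and 152.3 in Ring1a-KO, so Pcgf-4KO was the group with the low level. The paternally expressed gene of the domain, Dlk1 (109452823 to 109463336), was at 20.99, 23.89 and 23.78 TPM against 30.27, 31.15 and 38.48 TPM (-0.52 ± 0.09, adjusted p = 0.000407), above its WT mean of 6.587 TPM in both groups. Whether these levels follow the genotype or the cells from which each line was made cannot be told apart, because the labels name no clones.

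The other top differences higher in the double knockout were the X-linked ciliary protein gene Efhc2 (1.02, 1.5 and 0.97 TPM against 23.91, 23.24 and 21.94 TPM, -3.48 ± 0.1), and the X-linked testis ubiquitin protease gene Usp26 (2.66 against 27.05 TPM, -2.94). They also included Igf2bp3, an RNA-binding protein gene (2.14 against 19.3 TPM, -2.7), and Nccrp1 (2.09 against 18.96 TPM, -2.69). Usp26 and Igf2bp3 were near or above 14 TPM in WT, with means of 33.45 and 14.59 TPM, so Pcgf-4KO was the group farther from WT.

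**Figure D3:**
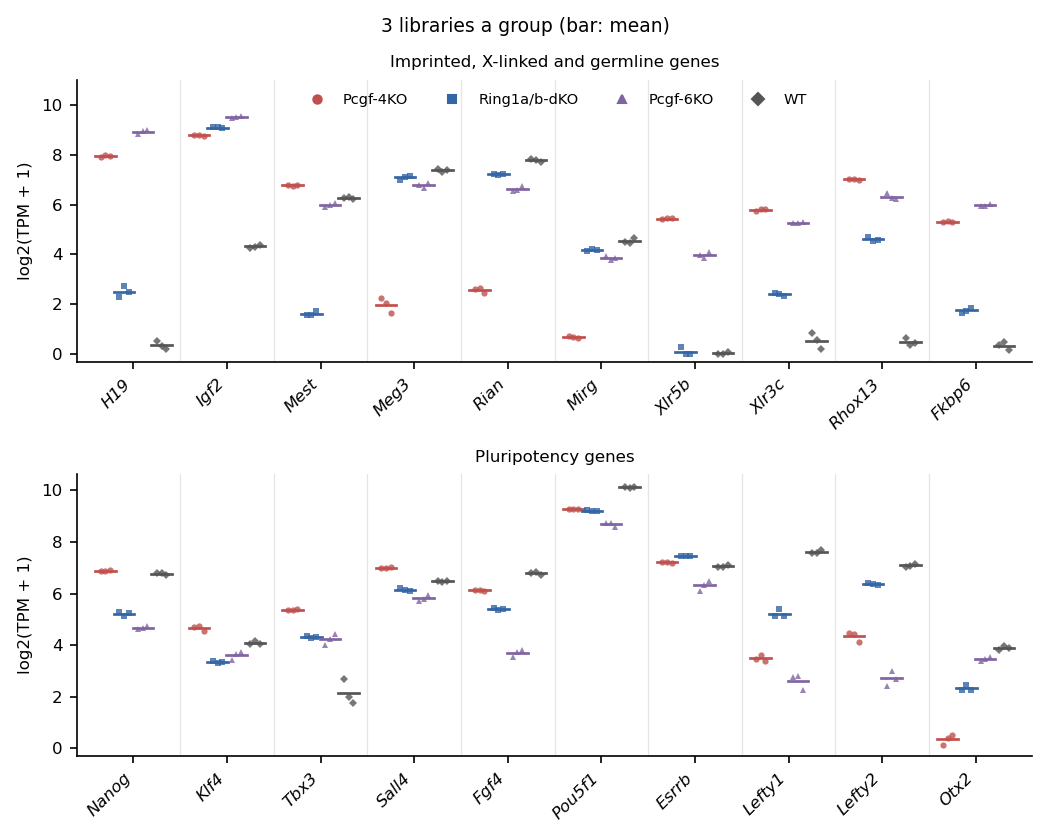
Transcript level, log2(TPM + 1), of imprinted, X-linked and germline genes (upper panel) and pluripotency genes (lower panel) in Pcgf-4KO, double knockout, Pcgf-6KO and WT; points are single libraries and bars means of 3. H19, Mest, Xlr5b, Xlr3c, Rhox13 and Fkbp6 were higher in Pcgf-4KO than in the double knockout and Meg3, Rian and Mirg lower, while Pou5f1 (621 against 592.3 TPM) was not called.

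The 12 largest differences higher in Pcgf-4KO were taken among called genes with an established symbol, no overlap between libraries and 5 TPM or more. Of these 12, 8 were genes of the X-linked Xlr family, whose proteins resemble synaptonemal complex proteins of germ cells. DXBay18 lies among the Xlr genes. Xlr5b (chromosome X, 73148796 to 73158872) was at 42.12, 42.66 and 42.59 TPM in Pcgf-4KO and at 0.23, 0 and 0 TPM in the double knockout (5.34 ± 0.11, adjusted p = 5.32e-14). Xlr3c (73254540 to 73265390) was at 53.01, 55.01 and 55 TPM against 4.46, 4.39 and 3.97 TPM (3.39 ± 0.12), and Xlr4a at 49.04, 49.74 and 48.98 TPM against 3.34, 5.56 and 4.28 TPM. Pcgf-6KO lay between the groups for Xlr5b (14.79 TPM) and Xlr3c (37.63 TPM), and the WT means were 0.02 and 0.47 TPM. As a family, chosen after the values were seen, 10 of 10 tested Xlr genes were called higher in Pcgf-4KO, against 15.3% of all genes, with a median of 3.45. The table holds 16, and 2 of the 10 reached 1 TPM in WT, so most passed the filter on low values through knockout libraries. These are near-identical copies, so the split of reads between them is uncertain, and the 10 are not independent. The 120 bases before the RefSeq starts are shown for Xlr5b (chrX:73148721-73148840, plus strand) and Xlr3c (chrX:73265391-73265510, minus strand). These are the members with the largest difference and the highest level. The last part of the Xlr5b stretch lies inside the gene span given above. CpG is again in capitals, 8 and 5 in all.
Xlr5b: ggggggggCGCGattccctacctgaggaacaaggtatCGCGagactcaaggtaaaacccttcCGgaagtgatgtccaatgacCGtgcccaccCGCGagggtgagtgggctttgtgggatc
Xlr3c: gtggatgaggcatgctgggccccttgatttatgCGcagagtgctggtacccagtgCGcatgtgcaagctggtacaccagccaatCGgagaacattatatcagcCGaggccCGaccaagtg

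The Rhox cluster, X-linked homeobox genes of testis and placenta, showed the same direction in 15 of 16 tested genes (median 1.59), against 15.3% of all genes. This family was again picked after its values were seen. The table holds 42 Rhox genes, and 5 of the 16 tested reached 1 TPM in WT, so most passed the filter on low values through knockout libraries. The 16 lie in 1 cluster and are not independent. Rhox13, a germ cell member, was at 130.04, 130.63 and 125.53 TPM in Pcgf-4KO and at 24.83, 22.34 and 23.03 TPM in the double knockout (2.41 ± 0.14, adjusted p = 7.37e-09). Another X-linked gene, 1700013H16Rik, named after its values were seen, was at 221.02, 229.44 and 247.22 TPM against 4.98, 5.31 and 4.81 TPM (5.27 ± 0.06).

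By chromosome, 53 of 607 tested X-linked genes (8.73%) were at least 2-fold higher in Pcgf-4KO, against 142 of 16260 autosomal genes (0.873%, from 0.426% to 1.62% for single autosomes). This tally was also made after the data were seen. Of the 53 genes, 23 belonged to the Xlr or Rhox families and 14 were at 1 TPM or more in WT. Most of the 53 thus passed the filter on low values through knockout libraries, and they are not independent. The X chromosome held 2.65% ± 0.01 of all TPM in Pcgf-4KO, 2.36% ± 0.0231 in the double knockout and 2.28% in WT. The Y-linked gene Ddx3y was at 0.02333 and 0.02 TPM in the 2 knockouts against 17.96 TPM in WT. It was at 20.08, 20.25 and 25.91 TPM in Pcgf-6KO, 3.64, 3.61 and 3.79 in Ring1b-KO and 0.02, 0.02 and 0 in Ring1a-KO. The lines thus differed in Y-linked transcripts. Whether differences from WT, or the X-linked difference, follow the genotype or the line cannot be told apart. Between the 2 knockouts, 1 of 15 tested genes on the Y chromosome was called, higher in the double knockout, and 0 were at least 2-fold apart. Xist, which coats the inactive X, was at 1.627 and 1.743 TPM in Pcgf-4KO and the double knockout. Among genes at least 2-fold higher in the double knockout, single autosomes held from 0.491% to 4.44%, the highest on chromosome 11, which carries the Hoxb cluster.

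**Figure D4:**
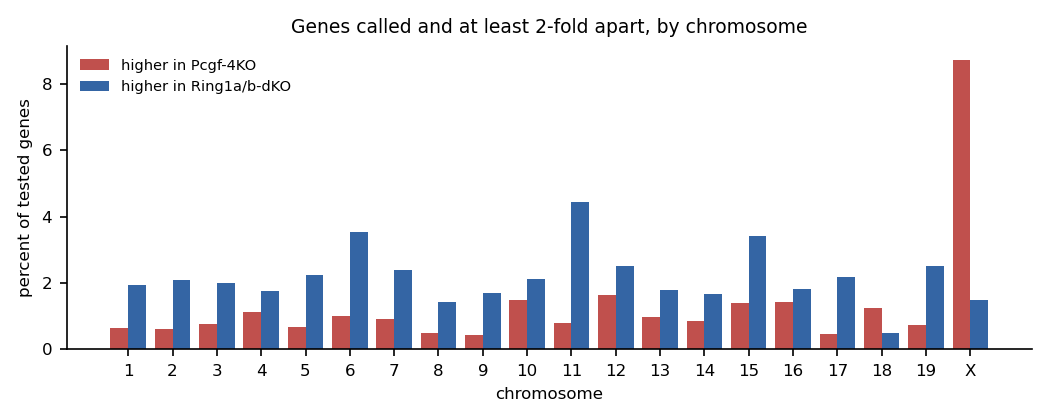
Percent of tested genes on each chromosome that were called and at least 2-fold higher in Pcgf-4KO or in the double knockout. The X chromosome stands out for genes higher in Pcgf-4KO (8.73%, against at most 1.62% on an autosome).

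Germline genes moved in both directions. Of 66 tested germline and meiosis genes, 20 were higher in Pcgf-4KO and 21 in the double knockout, with a median of -0.1, against 15.3% and 22.1% of all genes. Fkbp6, needed for meiosis and piRNA loading, was at 38.24, 39.88 and 38.08 TPM in Pcgf-4KO and at 2.17, 2.36 and 2.61 TPM in the double knockout (3.56 ± 0.09, adjusted p = 3.98e-13), with a WT mean of 0.2733 TPM and a Pcgf-6KO mean of 61.71 TPM. Mageb4 (71.87, 72.79 and 72.25 TPM against 20.94, 21.63 and 20.65 TPM, 1.73 ± 0.05) and Asz1, a piRNA pathway gene (9.91 against 3.197 TPM, 1.38), stood on the same side. Higher in the double knockout were the piRNA gene Tdrd12 (11.12 against 25.15 TPM, -1.12), the synaptonemal complex gene Sycp1 (21.59, 23.05 and 25.23 TPM against 51.52, 51.13 and 51.63 TPM, -1.11 ± 0.16) and its partner Syce3 (19.2 against 38.1 TPM, -0.96). Germline genes thus lay on both sides of the comparison. Dazl, which encodes a translational regulator of germ cells, was nearly level (12.71, 14.8 and 14.16 TPM against 12.27, 10.64 and 12.26 TPM, 0.23). Its call was lost without Pcgf-4KO replicate 2 or 3 or double knockout replicate 2. The Dazl call was also lost with a pseudocount of 0.1 (adjusted p = 0.0686) and in the fit of the 6 libraries alone (0.0719).

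A pair of motifs known for partners in the Pcgf6 complex were searched in the 250 bases before each RefSeq start: CACGTG, the E-box that Mga and Max bind, and GCGGGAA, the core that E2f6 binds, on both strands and counted separately. A promoter was at hand for 56 of the 66 germline genes, and 17 of these (30.4%) held the E-box and 12 (21.4%) the E2F core, against 8.43% and 6.91% of the 11657 tested genes with a promoter. Of the 19 germline promoters called higher in Pcgf-4KO, 7 (36.8%) held the E-box and 1 (5.26%) the E2F core. For the 18 called higher in the double knockout these counts were 4 (22.2%) and 8 (44.4%). The counts are descriptions of a few promoters with no test, and a match is not a bound site. Over all genes at least 2-fold apart, promoters were at hand for only 125 of 238 and 234 of 430. The E-box was in 7.2% of the promoters higher in Pcgf-4KO and 8.55% of those higher in the double knockout. The E2F core was in 2.4% and 2.56%. Where a promoter was at hand, E-box shares were thus near, and E2F core shares below, those of all tested genes, with no test. Fkbp6 (chr5:135350045-135350164, minus strand) and Taf7l (chrX:134476491-134476610, minus strand) are shown because both carry the E-box close to the start, while only Fkbp6 was called between the 2 knockouts. The capitals mark the E-box, whose first base lies 101 and 37 bases before the start in Fkbp6 and 49 in Taf7l. Taf7l, a testis paralog of a general transcription factor subunit chosen after its values were seen, was at 84.88, 85.26 and 89.26 TPM in Pcgf-4KO and at 103.02, 99.22 and 96.54 TPM in the double knockout, and was not called (-0.2 ± 0.08, adjusted p = 0.0714).
Fkbp6: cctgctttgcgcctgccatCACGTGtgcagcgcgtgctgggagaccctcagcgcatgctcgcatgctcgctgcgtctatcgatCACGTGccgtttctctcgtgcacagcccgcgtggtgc
Taf7l: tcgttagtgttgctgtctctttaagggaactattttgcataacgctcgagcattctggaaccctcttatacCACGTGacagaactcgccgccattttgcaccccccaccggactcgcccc

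Genes that mark 2-cell-like cells, a transient state resembling the cleavage-stage embryo, were low in both groups. Of 20 tested, 16 were called higher in Pcgf-4KO and 0 in the double knockout (median 0.56), against 15.3% and 22.1% of all genes. But only 8 had a Pcgf-4KO mean of 1 TPM or more and 2 a double knockout mean that high. Zscan4f, a telomere-associated marker of the state, was at 1.81, 1.95 and 2.48 TPM against 0.54, 0.39 and 0.25 TPM, with 13.96 TPM in Pcgf-6KO. When genes were kept by the mean of the 6 libraries instead, fewer of the 20 were tested and 4 members were called. That filter was added after the data were seen. Many of the 20 thus passed the filter on low values through other knockouts. Eif1a was the member above 5 TPM (167.3 against 134 TPM, 0.32).

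Pluripotency genes were partly separated. Of 22 core pluripotency and stem cell genes, 12 were higher in Pcgf-4KO and 3 in the double knockout (median 0.17), against 15.3% and 22.1% of all genes. The 3 became 6 after quantile normalization. Nanog (chromosome 6, 122707489 to 122714633), a factor that stabilises self-renewal, was at 115.25, 117.8 and 119.42 TPM in Pcgf-4KO and at 37.44, 34.12 and 37.24 TPM in the double knockout (1.67 ± 0.05, adjusted p = 2.05e-12). Pcgf-4KO was near the WT mean of 107.9 TPM, and the double knockout was below it. Sall4 (125.71, 126.87 and 130.25 TPM against 72.29, 69.23 and 68.18 TPM, 0.86) and Fgf4 (68.63, 70.15 and 67.34 TPM against 42.95, 40.31 and 40.7 TPM, 0.72), a growth factor that primes cells for lineage choice, followed Nanog. Dppa4 (164.1 against 237 TPM, -0.53), Dppa2 (149.4 against 203 TPM, -0.44) and Esrrb (147 against 175.3 TPM, -0.25) were higher in the double knockout. Pou5f1, which encodes Oct4, was at 626.74, 615.94 and 620.2 TPM against 612.3, 583.27 and 581.4 TPM and was not called (0.07, 95% interval -0.02 to 0.15), except in the fit without the Ring1a-KO and Pcgf-6KO groups (adjusted p = 0.0457). Sox2 (172.3 against 136 TPM, 0.34) and Zfp42 (104.8 against 77.09 TPM, 0.44) were called, with small differences. The WT means of Pou5f1, Sox2 and Zfp42 were 1110, 247 and 56.6 TPM. Both groups thus lay below WT for Pou5f1 and Sox2 and above it for Zfp42. Against WT, 14 of the 22 were called lower and 7 higher in Pcgf-4KO (17.9% and 47.1% of all genes). In the double knockout these counts were 17 and 4 (15.8% and 48.6% of all genes).

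Of 18 naive pluripotency genes, which mark the ground state of the early epiblast, 9 were higher in Pcgf-4KO and 2 in the double knockout (median 0.24). The shares of all genes were 15.3% and 22.1%. Klf4 was at 24.97, 25.68 and 22.32 TPM against 9.37, 8.79 and 9.21 TPM (1.32 ± 0.08, adjusted p = 7.32e-09), and Tbx3 at 39.84, 39.72 and 40.77 TPM against 19.19, 18.22 and 18.9 TPM (1.06 ± 0.2). Tfcp2l1 was at 60.93 against 32.37 TPM (0.89). The WT means of Klf4, Tbx3 and Tfcp2l1 were 16.04, 3.577 and 18.08 TPM, so WT lay between the groups for Klf4 and below both for Tbx3 and Tfcp2l1. The 2 higher in the double knockout were Nr0b1 (41.62 against 51.42 TPM, -0.3) and Esrrb (147 against 175 TPM), which is also in the core list.

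Formative genes, which mark the step from the naive state towards lineage choice, leaned the other way. Of 22, 14 were higher in the double knockout and 4 in Pcgf-4KO (median -0.44), against 22.1% and 15.3% of all genes. The Nodal antagonist genes Lefty2 (21.11, 20.56 and 16.55 TPM against 82.87, 81.79 and 79.86 TPM, -2.02 ± 0.11) and Lefty1 (9.87, 11.28 and 9.44 TPM against 34.3, 40.84 and 33.54 TPM, -1.73 ± 0.12) were higher in the double knockout, and below WT (135.6 and 194 TPM) in both groups. Otx2, a factor of the primed epiblast and forebrain, was at 0.09, 0.33 and 0.44 TPM against 3.74, 4.52 and 3.76 TPM, with a WT mean of 13.8 TPM. The libraries of both groups lay below WT for these genes, and Pcgf-4KO lay lowest. Sox3 (3.52 against 9.867 TPM, -1.28) was higher in the double knockout. The de novo DNA methyltransferase genes Dnmt3b (267.05, 267.87 and 251.41 TPM against 167.59, 164.58 and 163.06 TPM, 0.66) and Dnmt3l (972.6 against 742.3 TPM, 0.39) were higher in Pcgf-4KO. Of the 9 DNA methylation enzyme genes tested, these were the 2 higher in Pcgf-4KO, and Dnmt3a (22.05 against 29.69 TPM, -0.41) was the 1 higher in the double knockout, a count of 3 after quantile normalization and of 4 in the fits of the 6 libraries alone and without the Ring1a-KO and Pcgf-6KO groups.

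**Figure D5:**
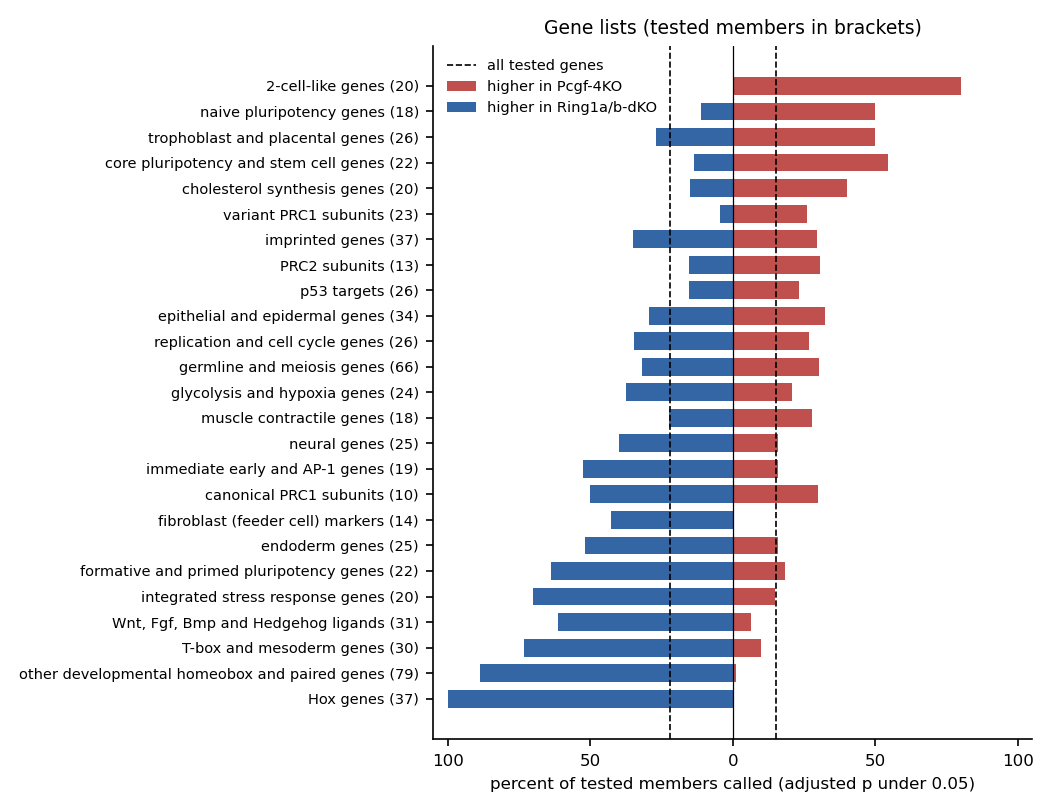
Percent of the tested members of each list that were called higher in Pcgf-4KO (right) or higher in the double knockout (left), for lists with 10 or more tested genes, ordered by median difference; dashed lines give the shares of all tested genes, 15.3% and 22.1%. Hox and other homeobox genes lie almost wholly on the double knockout side, and 2-cell-like genes (16 of 20) lie on the Pcgf-4KO side. When genes were kept by the mean of the 6 libraries, fewer of the 20 were tested and 4 were called. Of the naive pluripotency genes, 9 of 18 were higher in Pcgf-4KO.

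Untargeted Polycomb genes mostly differed by less than 2-fold. Of 10 canonical PRC1 genes, 5 were higher in the double knockout and 3 in Pcgf-4KO, against 22.1% and 15.3% of all genes. The 5 became 3 without Pcgf-4KO replicate 1 or double knockout replicate 3, and 2 with a pseudocount of 0.1. Cbx8, a reader of methylated histone H3 that is itself a Polycomb target, was at 8.55, 9.6 and 7.59 TPM against 15.1, 15.51 and 12.98 TPM (-0.7 ± 0.17, adjusted p = 0.00397), with a WT mean of 0.25 TPM, and its call was lost with a pseudocount of 0.1 (adjusted p = 0.0745). Cbx2 (29.5 against 41.59 TPM, -0.48) went with it. Phc1, which encodes a polymerising subunit, was higher in Pcgf-4KO (106.97, 104.91 and 98.45 TPM against 70.66, 71.54 and 70.42 TPM, 0.54), and below its WT mean of 286.5 TPM in both groups. Scml2, an X-linked germline Polycomb protein gene named after its values were seen, was at 3.8, 6.1 and 5.03 TPM against 0.98, 2.46 and 1.31 TPM (1.23 ± 0.21).

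Of 23 variant PRC1 genes, 6 were higher in Pcgf-4KO, 1 was higher in the double knockout and 16 were not called. Over all genes, 15.3% were higher in Pcgf-4KO and 22.1% in the double knockout. Under median ratio scaling 10 were higher in Pcgf-4KO, and after quantile normalization or in the 2 smaller fits 2 were higher in the double knockout. Bcor, the Pcgf1 partner, was at 86.88 against 63.9 TPM (0.44) and Max at 80.17 against 57.26 TPM (0.48), while Bcorl1 was at 9.63 against 14.91 TPM (-0.58). Mga, E2f6, L3mbtl2, Kdm2b and Rybp were not called, and the 95% intervals of these 5 lay between -0.5 and 0.24. PRC2 is the complex that methylates histone H3. Against the same shares of all genes, 4 of 13 PRC2 genes were higher in Pcgf-4KO and 2 in the double knockout. The 2 became 1 without double knockout replicate 1 or 2. Suz12 (168.5 against 124.1 TPM, 0.44) and Ezh1 (23.69 against 38.29 TPM, -0.67) differed, and Ezh2 (86.91 against 92.25 TPM) was not called.

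Over all genes, 15.3% were higher in Pcgf-4KO and 22.1% in the double knockout, the background for the counts that follow. Of 25 neural genes, 10 were higher in the double knockout and 4, near that background, in Pcgf-4KO (median -0.18). Pax6 (1.953 against 8.2 TPM, -1.63) and the growth cone gene Gap43 (1.423 against 5.56 TPM, -1.44) were higher in the double knockout, and the neurofilament gene Nefm (5.34, 4.98 and 4.72 TPM against 0.9, 0.87 and 0.74 TPM, 1.71) in Pcgf-4KO. Of 34 epithelial genes, 11 were higher in Pcgf-4KO and 10 in the double knockout (median 0.01). The 11 became 7 without Pcgf-4KO replicate 1 or double knockout replicate 3, and the 10 became 6 without Pcgf-4KO replicate 2 or 3 or double knockout replicate 1. The keratin gene Krt17 was at 15.13, 13.38 and 11.92 TPM against 50.95, 54.74 and 49.93 TPM (-1.87 ± 0.07), and the annexin gene Anxa3 at 142.8 against 82.94 TPM (0.78). Of 18 muscle contractile genes, 5 were higher in Pcgf-4KO and 4, near the background, in the double knockout. Of 14 fibroblast markers these counts were 0 and 6, with 3 higher in Pcgf-4KO after quantile normalization. Thy1 (7.503 against 14.37 TPM, -0.87) was among the 6, and the part of feeder cells in that difference was not tested.

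Cell cycle and stress genes showed few large differences. Of 8 CDK inhibitors, 3 were higher in the double knockout and 1, Cdkn1a, in Pcgf-4KO, against 22.1% and 15.3% of all genes. Cdkn2a, which encodes the cell cycle inhibitors p16 and p19 and is a classic Polycomb target, was at 56.47, 62.9 and 57.46 TPM against 62.03, 66.73 and 72.36 TPM. Cdkn2a was not called (-0.18, 95% interval -0.35 to -0.01, adjusted p = 0.093). It was called higher in the double knockout after quantile normalization (adjusted p = 0.0437) and without the Ring1a-KO and Pcgf-6KO groups (0.0416). Its WT mean was 14.54 TPM. Cdkn2c (2.987 against 5.997 TPM, -0.81) was higher in the double knockout. Cdkn1a, which encodes p21, was called at a small difference (110.8 against 102.4 TPM, 0.11, adjusted p = 0.0397), and the call was lost when any single library of either group was left out. Of 26 p53 targets, 6 were higher in Pcgf-4KO, among them Plk2 (91.48 against 63.27 TPM, 0.53), and 4 in the double knockout, against 15.3% and 22.1% of all genes. The 6 became 3 without Pcgf-4KO replicate 3 or double knockout replicate 1 or 2, and the 4 became 2 without Pcgf-4KO replicate 3 or double knockout replicate 1 or 3. Among 26 replication and cell cycle genes these counts were 7 and 9, the 7 being 4 without Pcgf-4KO replicate 2 or double knockout replicate 2, and the cyclin gene Ccnd2 was at 0.74, 0.76 and 0.79 TPM against 7.15, 7.75 and 7.3 TPM (-2.25 ± 0.11, adjusted p = 8.38e-10).

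Of 20 integrated stress response genes, 14 were higher in the double knockout and 3 in Pcgf-4KO (median -0.46), against 22.1% and 15.3% of all genes. The same shares are the background for the other counts below. Nupr1 was at 6.37, 4.17 and 4.58 TPM against 15.22, 12.7 and 15.57 TPM (-1.37), and Pck2 at 6.86 against 13.59 TPM (-0.89). The members higher in Pcgf-4KO included Atf4, the transcription factor of the response, at 238.7 against 200.5 TPM (0.25), with Asns (0.26) and Trib3 (0.46). Atf4 thus lay opposite to most of its list. Of 24 glycolysis and hypoxia genes, 5 were higher in Pcgf-4KO, led by Ndrg1 (47.51 against 22.46 TPM, 1.05), and 9 in the double knockout, led by Vegfa (20.99 against 40.19 TPM, -0.91). The 5 became 3 without Pcgf-4KO replicate 1. Of 20 cholesterol synthesis genes, 8 were higher in Pcgf-4KO and 3 in the double knockout. Of 19 immediate early and AP-1 genes, 3 (5 in the fit of the 6 libraries alone) and 10 were higher in these groups, with Fos (14.64 against 7.72 TPM, 0.84) and Egr1 (12.33 against 23.77 TPM, -0.89) on opposite sides.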

How the data were processed

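RNA from 6 libraries (3 Pcgf-4KO, 3 Ring1a/b-dKO) was compared within a table of 18. The authors deposited TPM for 56551 genes, with each library summing to 1000000. Per the submitters' processing notes, GRCm38.p5 was the build and RSEM, edgeR and TopHat2 2.1.1 were used; what each did, and with which annotation, is not given in the sources used here. Gene names and coordinates were matched through a GENCODE GRCm38 annotation, and promoters through RefSeq (GRCm38.p6).

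Genes reaching 1 TPM in 3 or more of the 18 libraries were tested with limma 3.58.1 (R 4.3.3) on log2(TPM + 1), with 1 mean per group, all 18 libraries (12 residual degrees of freedom), a trended variance, two-sided tests and Benjamini-Hochberg adjustment. The script was tested on simulated data. Named genes are the targeted genes, the 12 largest differences in each direction (called genes at 5 TPM or more in the higher group, with no overlap between libraries and an established symbol), up to 3 members of each of 29 lists in each direction (called, 5 TPM or more) and 15 fixed genes. The comparison, the members and the lists were chosen with earlier results of these data known, and some lists share members. Library measures (mitochondrial transcripts 6.12% and 5.25%, ribosomal protein transcripts 15.7% and 17.9% of TPM in Pcgf-4KO and the double knockout) also differed. Their part in the results was not tested. A few genes that this rule selects are not reported here.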

Additional observations from a re-analysis of the deposited data

How the results depend on the processing

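Alternatives changed the pseudocount, filter, scaling, variance trend, libraries in the fit and replicate block. Of 3073 pairs of a named gene and an alternative, 2994 kept direction and call, 67 lost the call, 12 gained it and 0 reversed. With a pseudocount of 0.1, 489 and 927 genes were called at least 2-fold higher in Pcgf-4KO and in the double knockout, and 128 and 110 passed the test beyond 2-fold. With a pseudocount of 5 these were 95 and 75, and 43 and 20. Quantile normalization gave 289 and 268 at least 2-fold, and 88 and 42 beyond 2-fold. Without a filter, 31970 genes lay within 2-fold, since more genes were tested. The filter at 5 TPM left 14 Hox, 35 other homeobox, 8 T-box and mesoderm and 8 ligand genes higher in the double knockout, since fewer genes were tested. The filter on the mean of the 6 libraries left 4 of the 2-cell-like calls, also with fewer genes tested. Against WT, 5723 and 5678 genes were called lower in Pcgf-4KO and in the double knockout under median ratio scaling. After quantile normalization, 5573 were called higher and 5660 lower in Pcgf-4KO, and 5329 higher and 5730 lower in the double knockout. Leaving out each library in turn gave 2141 to 2325 genes higher in Pcgf-4KO and 3291 to 3431 higher in the double knockout. The fit of the 6 libraries alone gave no WT comparison, and called 3331 and 4369 genes. Same-numbered libraries did not deviate together (correlations 0.0546, -0.0277 and 0.0178), and the replicate block called 2649 and 3850 genes. The cause of these shifts was not tested beyond what the settings themselves fix. Depth is unknown, which limits what can be said of genes near 0 TPM: 51 genes with a median of 5 TPM or more over the 6 libraries were listed at 0 in one of them.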

Other observations

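A few genes outside the lists also separated the groups, and were chosen after their values were seen. Calcoco2, a selective autophagy receptor gene, was at 345.36, 341.27 and 355.43 TPM in Pcgf-4KO and at 72.96, 70.64 and 68.47 TPM in the double knockout (2.28 ± 0.05, adjusted p = 1.67e-13), with a WT mean of 29.66 TPM and a Pcgf-6KO mean of 148.1 TPM. Ctcfl, the germline paralog of the insulator protein gene Ctcf, was at 10.6, 11.72 and 10.41 TPM against 1.74, 1.68 and 1.74 TPM (2.13 ± 0.09, adjusted p = 2.72e-10), with a WT mean of 0.12 TPM. The placental gene Tex19.1 was at 514.2 against 300.4 TPM (0.77) and 79.39 TPM in WT. The libraries of the groups did not overlap for Calcoco2 or Ctcfl.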
